A study of Mus musculus with 26 samples.

Results

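The SLC25 genes encode the mitochondrial carriers, and their transcripts were followed here in muscle of mice on 2 diets and of 2 genotypes. Members were all probe sets that name 1 gene whose symbol on the array platform starts with Slc25a. Slc25a3, Slc25a4, Slc25a5, Slc25a11, Slc25a12 and Slc25a20, the carriers of phosphate, adenine nucleotides, oxoglutarate, aspartate and acylcarnitine most tied to oxidative phosphorylation and fat oxidation, were left out. The rule gave 73 of the 45101 probe sets of the array and 38 of the 18193 genes that such probe sets name. Of these, 62 probe sets and 35 genes were bright enough to be tested, among 14854 genes in all. A gene was read from its brightest probe set. The 3 genes below the filter on dim probe sets were Slc25a31, an adenine nucleotide carrier of germ cells, Slc25a41 of the ATP-Mg/phosphate carriers, and Slc25a54, and their group means were 82.4 to 89.5, 134 to 139.5 and 129 to 133.

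The muscle was tibialis anterior and extensor digitorum longus (TA/EDL), the fast muscles of the front of the lower leg, with 1 Affymetrix expression array for each of 26 mice. All mice were singly housed littermates of mixed C57/BL6 and 129 background, with either floxed alleles alone (FLOX) or a knockout of PGC-1a in skeletal muscle (MKO). PGC-1a, encoded by Ppargc1a, is a coactivator of transcription that raises the expression of many mitochondrial genes. Control groups, 6 FLOX and 7 MKO mice, were fed the control diet at 90% of their free intake, and calorie-restricted (CR) groups, again 6 FLOX and 7 MKO mice, were fed 80% of it in the first week and a diet made for 40% restriction at 60% of it for about 11 weeks. The promoter that drives the recombinase was not given in the sources used here; ages are not used here. The diet groups are also called controls and restricted mice.

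Carriers of this family sit, with few exceptions, in the inner mitochondrial membrane and exchange a solute on one side for a solute on the other. Each moves a narrow set of compounds, such as citrate, ornithine, glutathione, S-adenosylmethionine, coenzyme A, NAD, iron or nucleotides, so that together they connect pathways split between cytosol and matrix. In muscle the bulk traffic of ATP, phosphate and acylcarnitine passes through the carriers left out here, while the members supply cofactors, amino acids and building blocks.

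Array medians lay between 212 and 232 on the linear intensity scale, the lowest value of an array between 56.6 and 62.8, and arrays of 1 group correlated at 0.984 to 0.996. Transcripts listed for fast fibres (Ckm, Acta1, Myh4 and 6 others) summed to 249223 to 266643 over the 26 mice. The sum includes general muscle transcripts, and Acta1 among them read 37243 to 38435, the range of the array maxima. The narrow range of the sum is therefore no measure of fibre type. Of the fast myosin genes, Myh4 read 27491 to 31219, Myh1 20931 to 24986 and Myh2 11660 to 22914. Of the 9 genes only Myh2 was called by limma, higher on CR in mice labelled MKO (1.33-fold, adjusted p = 0.0131). All 5 probe sets of Ppargc1a were brighter in the mice labelled MKO, 1.53- to 1.76-fold with the control diet and 1.34- to 1.57-fold with CR. Where these probe sets lie relative to the deleted part was not given in the sources used here, so they do not check the genotype labels, and directions below are those of the mice as labelled. Each array is 1 mouse, and adjusted p-values are from limma with Benjamini-Hochberg adjustment over all 14854 genes, called at 0.05. In bulk muscle, fewer cells of a type and less RNA per cell cannot be told apart. Log2 differences and folds are on the log2(intensity + 16) scale, on which changes of dim genes come out too small, and intensities of different probe sets are not compared with each other.

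Mice labelled MKO were set against FLOX littermates on each diet, to ask what the muscle knockout changes. Slc25a39, Slc25a34, Slc25a26, Slc25a15 and Slc25a42 fell in the mice labelled MKO on the control diet and again on CR, in separate sets of mice, and Slc25a16 rose on both. On the control diet 1 member was higher and 8 were lower of the 35 tested, where 19.3% of all genes tested were called, 9.05% higher and 10.2% lower. The members' shares were 25.7% called and 22.9% lower. On CR 1 was higher and 7 were lower, or 22.9% called and 20% lower, against a background of 17.3% called, 8.23% higher and 9.05% lower. The 5 members lower on both diets compare with 5.74% of all genes, and the 1 higher on both with 5.25%. Median differences of the 35 members were -0.05 on the control diet and -0.07 on CR, against -0.02 for all genes on each diet. The remaining calls were lower values of Slc25a28, Slc25a29 and Slc25a40 on the control diet and of Slc25a13 and Slc25a33 on CR. No difference between the diets in the size of these genotype effects was called by the interaction term of limma.

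**Figure D1:**
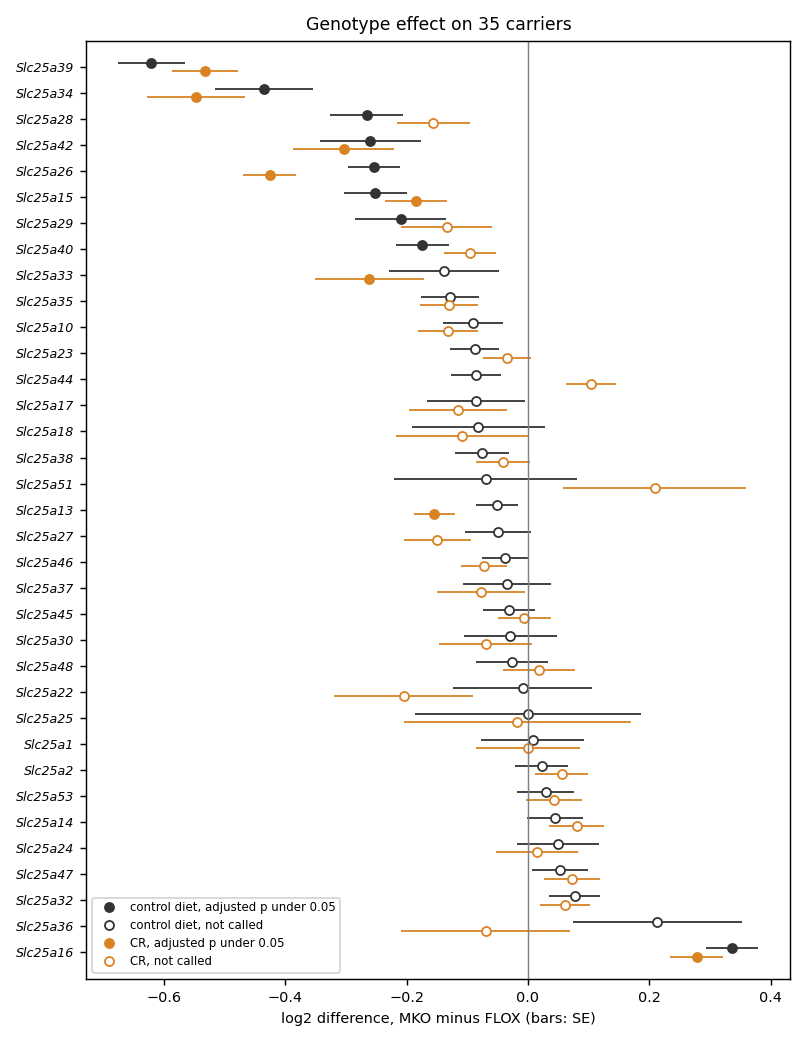
Difference between mice labelled MKO and FLOX mice (log2, x axis, with the standard error) for each of the 35 carriers tested, on the control diet and on CR, ordered by the control-diet difference. Filled points passed the adjusted p of 0.05. Slc25a39 and Slc25a34 lie farthest to the left on both diets and Slc25a16 lies to the right on both.

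Slc25a39 is required for import of glutathione, the main thiol antioxidant, into mitochondria. Intensities of Slc25a39 in control-diet FLOX mice had a lowest, median and highest value of 2815, 3038 and 3554, and in control-diet mice labelled MKO of 1901, 2027 and 2180.4. On CR the same values were 2543, 2803 and 2959 in FLOX and 1689, 1955 and 2088 in MKO. On each diet all 7 mice labelled MKO lay below all 6 FLOX mice. The group mean was 3131 ± 291 (SD, n = 6) against 2026 ± 102 (SD, n = 7) on the control diet, 1.54-fold lower (-0.62 ± 0.05 SE, adjusted p = 6.47e-09). On CR it was 2781 ± 173 (SD, n = 6) against 1919 ± 131 (SD, n = 7), 1.45-fold lower (-0.53 ± 0.05 SE, adjusted p = 5.25e-08). Of its 5 probe sets past the filter, 4 gave differences of -0.62 to -0.67 on the control diet. The fifth was dim, with a mean of 256, and gave -0.10 (adjusted p = 0.49). Of the 4, 3 carry the suffix _x_at, which marks probes able to bind several transcripts. Slc25a40, the closest relative of Slc25a39 and also linked to glutathione import, was 1.13-fold lower on the control diet, at 232 ± 18.2 against 263 ± 12.3 (adjusted p = 0.00503), with 5 of 7 mice labelled MKO below all FLOX mice. On CR the difference of Slc25a40 was -0.10 ± 0.04 SE and was not called (adjusted p = 0.136).

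Starts are shown of 4 genes called for genotype on both diets whose transcripts also separated the genotypes on CR without overlap. Slc25a26 met this too but had no promoter entry, and Slc25a13 separated on CR but was called on that diet alone. Slc25a15, called on both diets, overlapped on CR and is not shown, and its 2 windows held none of the motifs below. Motifs of factors that act with PGC-1a or bind promoters of mitochondrial genes were searched. Matches are given below the sequences, each motif beside its share of all genes. The starts shown were picked by their values in these data, so matches among them do not test for an excess. Each is 300 bases of RefSeq sequence on GRCm38.p6, 250 before and 50 after the annotated start, 5′ to 3′ on the gene's strand, at chr11:102407468-102407767 (minus strand) for Slc25a39, chr4:141623785-141624084 (minus strand) for Slc25a34, chr8:70212232-70212531 (minus strand) for Slc25a42 and chr10:62920383-62920682 (plus strand) for Slc25a16. Capitals mark motif matches.
Slc25a39: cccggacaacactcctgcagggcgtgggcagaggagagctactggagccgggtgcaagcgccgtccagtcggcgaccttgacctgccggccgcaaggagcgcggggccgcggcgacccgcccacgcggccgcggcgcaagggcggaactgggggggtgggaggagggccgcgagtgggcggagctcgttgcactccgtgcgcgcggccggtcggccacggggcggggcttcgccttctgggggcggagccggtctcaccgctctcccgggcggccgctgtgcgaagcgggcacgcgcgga
Slc25a34: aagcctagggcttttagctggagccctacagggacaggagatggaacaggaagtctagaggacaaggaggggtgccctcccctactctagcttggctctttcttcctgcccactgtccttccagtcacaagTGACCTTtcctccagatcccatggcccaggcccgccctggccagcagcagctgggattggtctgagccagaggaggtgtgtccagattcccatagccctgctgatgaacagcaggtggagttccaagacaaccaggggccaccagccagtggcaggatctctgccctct
Slc25a42: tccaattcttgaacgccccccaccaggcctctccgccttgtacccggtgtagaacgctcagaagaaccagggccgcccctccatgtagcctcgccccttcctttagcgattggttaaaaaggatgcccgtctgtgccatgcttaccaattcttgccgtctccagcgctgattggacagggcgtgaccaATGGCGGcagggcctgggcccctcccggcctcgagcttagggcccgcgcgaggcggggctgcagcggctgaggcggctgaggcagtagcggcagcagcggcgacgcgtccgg
Slc25a16: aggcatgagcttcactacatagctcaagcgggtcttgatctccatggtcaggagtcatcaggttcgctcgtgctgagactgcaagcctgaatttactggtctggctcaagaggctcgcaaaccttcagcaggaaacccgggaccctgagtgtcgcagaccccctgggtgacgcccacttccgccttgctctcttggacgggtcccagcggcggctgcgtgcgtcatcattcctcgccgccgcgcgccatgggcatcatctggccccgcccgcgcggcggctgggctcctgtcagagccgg
Searched on both strands were AAGGTCA, the half-site of oestrogen-related receptors, CATGCGC, the core of NRF1 sites, CCGGAAG, the core of ETS sites, and ATGGCGG, the core of YY1 sites. None of these is a substring of another, and no match overlapped another in the windows shown. Entries were found for 28 of the 38 members. The oestrogen-related receptor half-site was in 1 of the 28, Slc25a34, as TGACCTT with its first base at -119 from the start, and in at least 1 window of 5.38% of all 27025 genes (4.72% of the 32851 windows of this length). The YY1 core was in 1, Slc25a42, with its first base at -62, and in 4.69% of genes (4.05% of windows). Neither Slc25a39 nor Slc25a16 held any of the 4. The ETS core was in 4 members, Slc25a17, Slc25a25, Slc25a38 and Slc25a54, and in 9.93% of genes (8.86% of windows). The NRF1 core was in 2, Slc25a31 and Slc25a54, and in 4.41% of genes (3.91% of windows). A match describes letters and not a bound site.

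**Figure D2:**
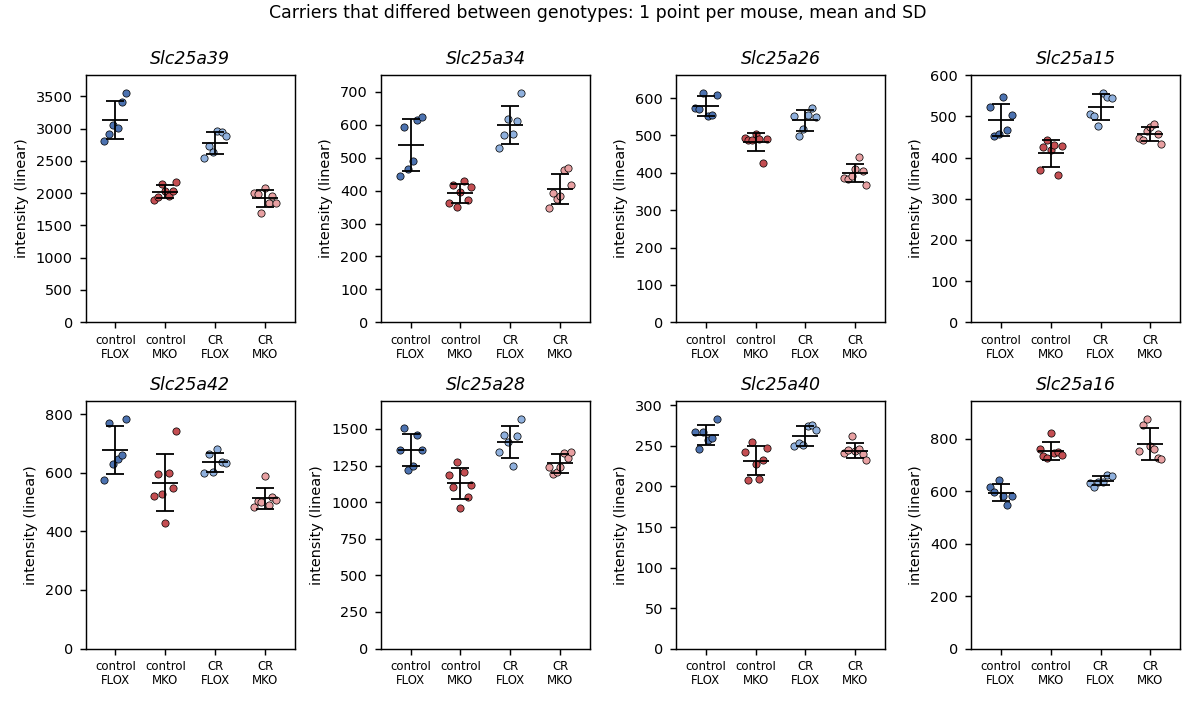
Intensity (linear scale, y axis from 0) of 8 carriers called for genotype, 6 on both diets and Slc25a28 and Slc25a40 on the control diet, with 1 point per mouse and the mean and SD of the 4 groups. Slc25a39 and Slc25a34 show the 2 genotypes apart on each diet, and Slc25a42 overlaps on the control diet.

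Among carriers of the other cofactors, Slc25a26 and Slc25a42 fell in mice labelled MKO and Slc25a16 rose. Slc25a26 brings S-adenosylmethionine, the methyl donor, into the matrix. Its lowest, median and highest intensities were 553, 572 and 614 in control-diet FLOX mice and 427, 491 and 503 in control-diet mice labelled MKO. They were 498, 551 and 573 in FLOX and 368, 392 and 443 in MKO mice on CR. The genotypes did not overlap on either diet. The fall was 1.19-fold on the control diet (-0.25 ± 0.04 SE, adjusted p = 0.000122) and 1.34-fold on CR (-0.43 ± 0.04 SE, adjusted p = 4.14e-08). A second probe set of Slc25a26 passed on both diets, at -0.25 and -0.29. Slc25a42 carries coenzyme A into the matrix. In FLOX mice on the control diet its values were 574, 654 and 784, and in mice labelled MKO 428, 549 and 744. On CR they were 599, 636 and 680.2 in FLOX and 483, 504 and 588 in MKO. The groups overlapped on the control diet, where 4 of 7 mice labelled MKO lay below all FLOX mice, and not on CR. The fall was 1.2-fold on the control diet (adjusted p = 0.0274) and 1.23-fold on CR (-0.30 ± 0.08 SE, adjusted p = 0.0107). The control-diet call ended when FLOX mouse 2 or 6 or MKO mouse 3 or 4 of that diet was left out (adjusted p up to 0.0882) and when only these 2 groups were fitted (0.101). A second probe set of Slc25a42 gave -0.08 and -0.04 and was not called, so the fall of Slc25a42 rests on 1 of its 2 probe sets.

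Slc25a16, a carrier long linked to coenzyme A by its yeast relative, was the only member called higher in mice labelled MKO. It was read from the only probe set the rule gave for it, so no second probe set bears on this rise. Control-diet FLOX mice had a lowest, median and highest intensity of 547, 589.8 and 642, and mice labelled MKO of 726, 746 and 823. On CR the values were 616, 637 and 662 and 724, 759.8 and 875. All 7 mice labelled MKO lay above all 6 FLOX mice on each diet. The rise was 1.26-fold on the control diet (0.34 ± 0.04 SE, adjusted p = 3.28e-06) and 1.21-fold on CR (0.28 ± 0.04 SE, adjusted p = 3.52e-05). Of the 7 tested carriers of cofactors, glutathione and S-adenosylmethionine, 4 were lower and 1 higher on the control diet, and 3 were lower and 1 higher on CR. The members of this group never called were Slc25a32, which carries folate, with 0.08 ± 0.04 and 0.06 ± 0.04 SE, and Slc25a51, which carries NAD, with -0.07 ± 0.15 and 0.21 ± 0.15 SE.

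In the group of di- and tricarboxylate carriers, 1 of 4 members was called, Slc25a34, on both diets. Slc25a34 is placed with these carriers by its sequence and its substrate is not settled. Slc25a34 was read from the only probe set the rule gave for it. Its lowest, median and highest intensities in control-diet mice were 445, 542 and 623 in FLOX and 349.9, 397 and 429 in MKO. In CR mice they were 531, 592 and 697 in FLOX and 346, 393 and 467 in MKO. All 7 mice labelled MKO lay below all 6 FLOX mice on each diet. The mean was 391 ± 30 against 539 ± 80.5 on the control diet, 1.35-fold lower (-0.44 ± 0.08 SE, adjusted p = 0.000355), and 406 ± 45.4 against 599.8 ± 57.4 on CR, 1.46-fold lower (-0.55 ± 0.08 SE, adjusted p = 1.69e-05). Slc25a35, its closest relative, was not called at -0.13 ± 0.05 SE (adjusted p = 0.0589) and -0.13 ± 0.05 SE (adjusted p = 0.0593), and was called lower with array weights on both diets (0.0336 and 0.0419) and on CR with only the compared groups (0.0413). It was also called on the control diet without number 5 of the FLOX controls (0.00491) or 6 of the MKO controls (0.0308), and on CR without number 5 of the FLOX controls (0.023), 4 of the restricted FLOX group (0.0288) or 4 of the restricted MKO group (0.0435). Slc25a1, the citrate carrier that exports carbon for fatty acid synthesis, had means of 382 ± 71.6 and 381 ± 40.3 on the control diet and 388 ± 23.7 and 389 ± 43.5 on CR, and differed by less than the spread between mice. Slc25a10, which exchanges malate or succinate for phosphate, gave -0.09 ± 0.05 SE (adjusted p = 0.213) and -0.13 ± 0.05 SE (adjusted p = 0.0665), and was called lower on CR without number 1 (0.0309) or 4 (0.0249) of the restricted MKO group.

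Amino acid carriers had 2 lower members of 8 on each diet, and only Slc25a15 was lower on both. Slc25a15 exchanges ornithine for citrulline and serves the urea cycle and polyamine supply. Control-diet values of Slc25a15, lowest, median and highest, were 453, 485 and 546 in FLOX and 359, 425 and 442 in MKO mice. The CR values were 477, 526 and 557 in FLOX and 433, 456 and 483 in MKO mice. The genotypes did not overlap on the control diet, and on CR 6 of 7 mice labelled MKO lay below all FLOX mice. The falls were 1.19-fold (-0.25 ± 0.05 SE, adjusted p = 0.000954) and 1.14-fold (-0.18 ± 0.05 SE, adjusted p = 0.0124), and its second probe set was called on both diets. Slc25a13, citrin, exports aspartate in exchange for glutamate and serves the malate-aspartate shuttle. On CR its values were 178, 187 and 199 in FLOX and 161, 168 and 177 in MKO, without overlap, 1.11-fold lower (-0.15 ± 0.03 SE, adjusted p = 0.00191). The control-diet difference of Slc25a13 was -0.05 ± 0.03 SE and was not called (adjusted p = 0.321), at means of 180.3 ± 6.99 and 174 ± 9.04.

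Slc25a29 carries basic amino acids such as arginine and lysine. Its control-diet values, lowest, median and highest, were 614, 702 and 756 in FLOX and 541, 591 and 678 in MKO, 1.16-fold lower (-0.21 ± 0.07 SE, adjusted p = 0.0493). On CR the means were 683 ± 99 and 617 ± 44.1 (adjusted p = 0.244). The groups overlapped on both diets, and 5 of 7 control-diet mice labelled MKO lay below all FLOX mice. The control-diet call was close to the threshold and ended when any 1 of 17 of the 26 mice was left out (adjusted p up to 0.121): numbers 2, 4, 5 and 6 of the FLOX controls, 1, 3, 4, 6 and 7 of the MKO controls, 1 and 3 of the restricted FLOX group and 1, 2, 3, 4, 5 and 7 of the restricted MKO group. It also ended under 5 of the 12 other alternative settings: no filter on dim probe sets (0.0563), quantile normalization (0.0586), the mean of its probe sets (0.0874), the replicate number as a block (0.0818) and without the arrays rich in slow fibre transcripts (0.0979). With adjustment over all probe sets, 1 of its 5 probe sets, not the brightest, was called lower on the control diet and 2 others on CR. Amino acid carriers not called for genotype were Slc25a2, a relative of Slc25a15, the glutamate carriers Slc25a18 and Slc25a22, Slc25a38, which carries glycine for haem synthesis, and Slc25a44, which carries branched-chain amino acids. Their differences ranged from -0.20 to 0.10 over both diets.

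Mitoferrins bring iron to the matrix for haem and iron-sulphur clusters. Slc25a28, mitoferrin 2 of most tissues, had control-diet values, lowest, median and highest, of 1222, 1355 and 1504 in FLOX and 958, 1119.8 and 1276 in MKO. The corresponding CR values were 1245, 1432 and 1566 and 1190.1, 1238 and 1345. On the control diet 6 of 7 mice labelled MKO lay below all FLOX mice, and the fall was 1.2-fold (-0.27 ± 0.06 SE, adjusted p = 0.00244). On CR the difference was -0.16 ± 0.06 SE and was not called (adjusted p = 0.0757), except with array weights (0.0403), with only the compared groups (0.0422) and without number 4 of the restricted FLOX group (0.0328). Slc25a37, mitoferrin 1, the form of red cell precursors, gave -0.03 ± 0.07 SE on the control diet and -0.08 ± 0.07 SE on CR and was not called.

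Of the 3 nucleotide carriers tested, 1 was called for genotype, Slc25a33 on CR. Slc25a33 and Slc25a36 carry pyrimidine nucleotides used to copy mitochondrial DNA. Slc25a33 had lowest, median and highest values of 757, 901 and 1096 in FLOX and 698, 737 and 868 in MKO mice on CR, and of 767, 806 and 1025 and 634, 805 and 927 on the control diet. The groups overlapped on both diets. The CR difference was 1.2-fold lower (-0.26 ± 0.09 SE, adjusted p = 0.0451), and that on the control diet was -0.14 ± 0.09 SE (adjusted p = 0.306). The call ended when any 1 of 12 mice was left out (adjusted p up to 0.123): numbers 3 and 5 of the FLOX controls, 1, 3, 4, 5 and 6 of the restricted FLOX group and 1, 4, 5, 6 and 7 of the restricted MKO group. It also ended under 3 of the 12 other settings, with no filter on dim probe sets (0.0527), with median centring (0.0677) and without the arrays rich in slow fibre transcripts (0.0919). Slc25a36 gave 0.21 ± 0.14 and -0.07 ± 0.14 SE, and Slc25a17, a carrier of the peroxisome, gave -0.09 ± 0.08 and -0.12 ± 0.08 SE, with no call.

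No member of the remaining role groups was called for genotype. The calcium-regulated ATP-Mg/phosphate carriers Slc25a23, Slc25a24 and Slc25a25, which load the matrix with adenine nucleotides, ranged from -0.09 to 0.05 over both diets. The uncoupling-protein-like Slc25a14, Slc25a27 and Slc25a30 ranged from -0.15 to 0.08, with Slc25a27 on CR nearest to a call (adjusted p = 0.06, and 0.0455 with the replicate number as a block). It was also called without number 2 of the MKO controls (0.0392), 2 of the restricted FLOX group (0.0321) or 4 (0.0359) or 7 (0.0477) of the restricted MKO group. Slc25a46, an outer membrane member that acts in mitochondrial shape, gave -0.04 ± 0.04 and -0.07 ± 0.04 SE. The little described Slc25a45, Slc25a47, Slc25a48 and Slc25a53 ranged from -0.03 to 0.07. Across all 35 members, 25 differences lay below 0 on the control diet and 24 on CR.

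**Figure D3:**
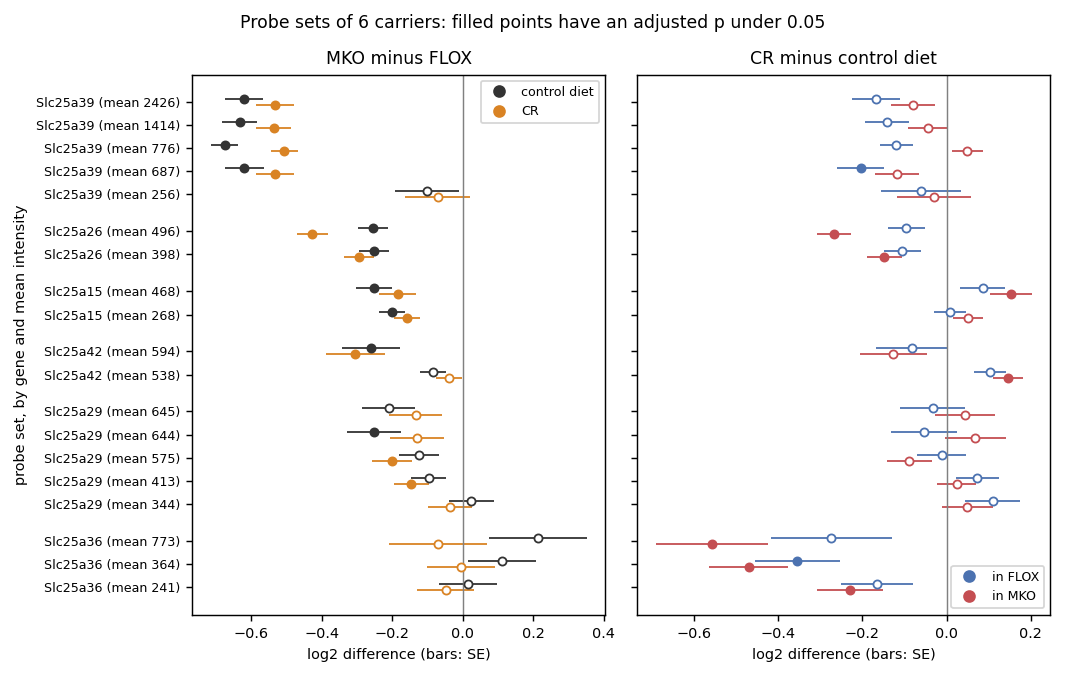
Log2 differences with standard errors of each probe set past the filter for 6 carriers with more than 1 such probe set, for genotype on each diet (left) and for diet in each genotype (right), with filled points at an adjusted p under 0.05. For Slc25a39 a dim probe set lies near 0 while the other 4 lie together, and for Slc25a42 the probe sets lie apart.

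Over the 62 probe sets past the filter, 1 was higher and 13 lower on the control diet, where 17.9% of all probe sets were called, 8.97% higher and 8.96% lower. On CR 1 was higher and 14 were lower, where 16.8% of all were called, 8.52% higher and 8.26% lower. The 4 lower probe sets of Slc25a39 and the pairs of Slc25a15 and Slc25a26 account for 8 of the lower ones on each diet, and probe sets of 1 gene are not independent. By mouse, the groups did not overlap for 1 higher and 4 lower members on the control diet, against 2.82% and 3.82% of all genes, and for 1 higher and 5 lower members on CR, against 3.17% and 4.54%. The 4 lower on the control diet were Slc25a15, Slc25a26, Slc25a34 and Slc25a39, and the 5 on CR were Slc25a13, Slc25a26, Slc25a34, Slc25a39 and Slc25a42.

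On CR no member passed the test in FLOX mice, and 6 passed in mice labelled MKO. In FLOX mice 0 of 35 members passed limma's test, where 10% of all genes were called, 4.66% higher and 5.37% lower, while 6 members had an unadjusted p under 0.05. The nearest were Slc25a53, of unsettled substrate, at 0.14 ± 0.05 SE (adjusted p = 0.0569) and Slc25a39 at -0.17 ± 0.06 SE (adjusted p = 0.0584). Slc25a39 means in FLOX mice were 3131 ± 291 on the control diet and 2781 ± 173 on CR, and the ranges overlapped. Its fall was called under 4 of the 12 other settings, with array weights (0.0201), the mean of its probe sets (0.0294), median centring (0.0491) and without arrays rich in slow fibre transcripts (0.0408). It was also called without number 1 of the FLOX controls (0.0312), number 4 of the restricted FLOX group (0.048) or number 3 of the restricted MKO group (0.0452). The rise of Slc25a53 was called without number 4 of the FLOX controls (0.0312) or 1 of the restricted FLOX group (0.0325), and that of Slc25a47 with array weights (0.0373) or without number 6 of the MKO controls (0.0472). At the level of probe sets 2 were lower in FLOX mice, 1 of Slc25a36 and 1 of Slc25a39, where 9.72% of all probe sets were called, 4.33% higher and 5.39% lower. No member had groups without overlap in FLOX mice, where 2.32% of all genes were higher and 3.08% lower in that way.

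In mice labelled MKO 4 members rose and 2 fell on CR, 17.1% of the members, where 15.1% of all genes were called, 6.64% higher and 8.48% lower, so the share was near that of all genes. The median difference of the 35 members was 0.01, and that of all genes 0.00095. Slc25a36 fell most. Its lowest, median and highest intensities in mice labelled MKO were 704, 959.7 and 1128 on the control diet and 511, 615 and 1034 on CR, and 6 of 7 CR mice lay below all control-diet mice. The fall was 1.47-fold (-0.56 ± 0.13 SE, adjusted p = 0.00505). In FLOX mice the values were 608, 759 and 1139 and 604, 653 and 742, a difference of -0.27 ± 0.14 SE that was not called (adjusted p = 0.267). All 3 probe sets of Slc25a36 were lower on CR in mice labelled MKO, and one of them also in FLOX mice (-0.35, adjusted p = 0.0237). The difference between genotypes in this fall was -0.28 ± 0.20 SE (unadjusted p = 0.161) and was not called.

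**Figure D4:**
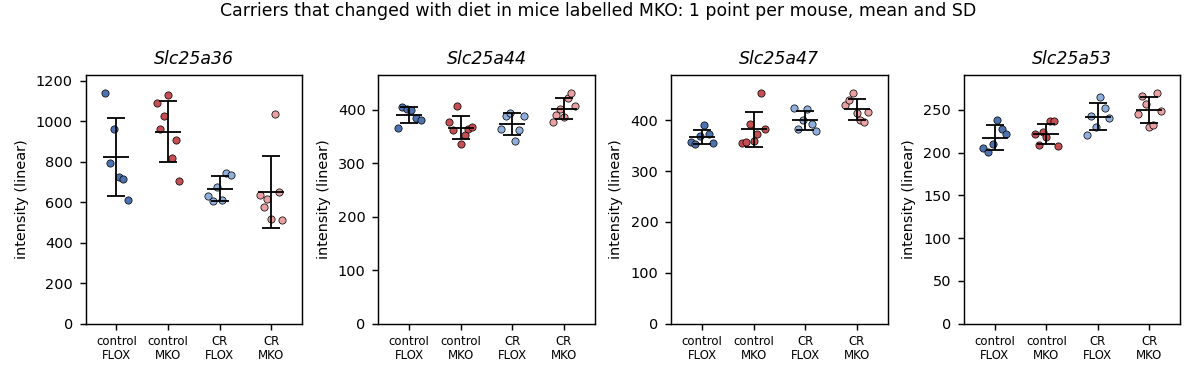
Intensity (linear scale, y axis from 0) of the carriers called for diet alone in mice labelled MKO, with 1 point per mouse and the mean and SD of the 4 groups. In Slc25a36 a single CR mouse labelled MKO stands at 1034, above the other 6, and the groups of Slc25a47 overlap.

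Slc25a26 also fell on CR in mice labelled MKO, by 1.2-fold (-0.27 ± 0.04 SE, adjusted p = 6.77e-05), from 483 ± 25.1 to 399 ± 24.1, and both its probe sets were called. The same CR mice labelled MKO enter this fall and the CR genotype difference of Slc25a26, so the 2 are not independent. In FLOX mice its difference was -0.10 ± 0.04 SE (adjusted p = 0.2), and the interaction was -0.17 ± 0.06 SE (adjusted p = 0.999). The 4 rises were small, between 1.09-fold and 1.12-fold. Slc25a53 went from 207, 222 and 237 (lowest, median, highest) to 229.6, 249 and 269.7, with 5 of 7 CR mice above all control-diet mice (1.12-fold, adjusted p = 0.017). Slc25a15 went from 411 ± 32.7 to 457 ± 17.5 (1.11-fold, adjusted p = 0.0367). The same control-diet mice labelled MKO enter this rise and the genotype difference of Slc25a15, and its second probe set was not called for diet (adjusted p = 0.39). Slc25a47, a carrier best known from liver, went from 356, 373 and 454 to 397, 416 and 453 (1.1-fold, adjusted p = 0.0341), and no CR mouse lay above all control-diet mice. Slc25a44 went from 336, 364 and 406 to 377, 401 and 432 (1.09-fold, adjusted p = 0.0265), with 3 of 7 CR mice above, and its other 2 probe sets were not called.

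Of these 4 rises, 3 ended when single mice were left out, and that of Slc25a53 did not. Without the 3 arrays rich in slow fibre transcripts none of them was called, with adjusted p of 0.0728 for Slc25a15, 0.144 for Slc25a44, 0.072 for Slc25a47 and 0.0776 for Slc25a53. With only the compared groups the values were 0.0514, 0.0595 and 0.0927 for Slc25a15, Slc25a44 and Slc25a47, and with median centring 0.0719, 0.0716 and 0.0501. The replicate number as a block ended the rise of Slc25a47 (0.0588), and the mean of its probe sets that of Slc25a44 (0.11). The rise of Slc25a15 ended without number 1 or 6 of the MKO controls or number 3, 4, 5 or 6 of the restricted MKO group (up to 0.0899), that of Slc25a44 without number 4 of those controls or 5 or 6 of the restricted mice (up to 0.0687), and that of Slc25a47 without number 1, 2, 4 or 5 of those controls or 1, 2 or 3 of the restricted mice (up to 0.077). The number of members higher was 2 to 5 as each mouse was left out, and differed by more than 1.5 times from 4 without number 4 of those controls or 3, 5 or 6 of the restricted mice. Slc25a28 was not called at 0.17 ± 0.06 SE (adjusted p = 0.0511). Its rise was called under 5 other settings, with array weights (0.0336), the filter at the 50th percentile (0.0455), the mean of a gene's probe sets (0.0483), quantile normalization (0.0279) and the replicate block (0.0376). It was also called without number 2 or 3 of the FLOX controls, 1, 3 or 5 of the MKO controls, 4 or 6 of the restricted FLOX group or 2 of the restricted MKO group (0.0199 to 0.0496). At the level of probe sets 7 were higher and 5 lower, where 14.7% of all were called, 6.21% higher and 8.46% lower. Dimmer probe sets of Slc25a17, Slc25a42 and Slc25a46 were higher while the brightest of those genes were not called. No member had groups without overlap, where 1.45% of all genes were higher and 2.03% lower in that way.

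**Figure D5:**
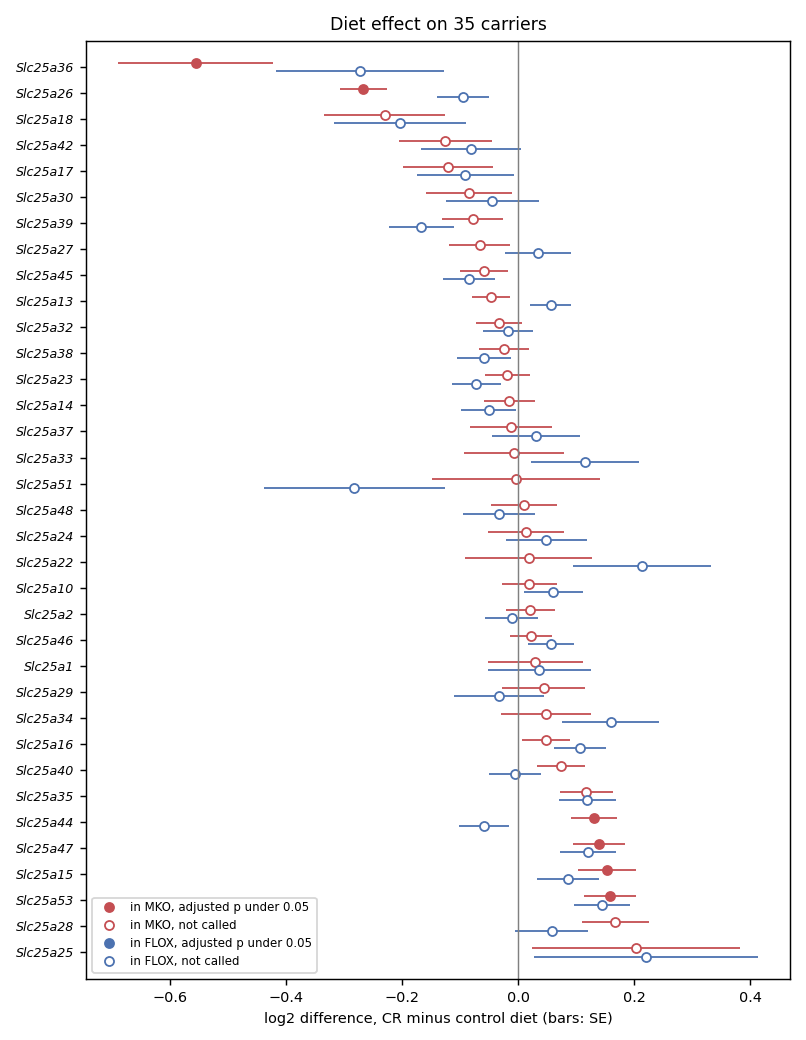
Difference between CR and control diet (log2, x axis, with the standard error) for each of the 35 carriers tested, in FLOX mice and in mice labelled MKO, ordered by the latter. Filled points passed the adjusted p of 0.05, and all 6 of them are in mice labelled MKO.

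The diet effect in mice labelled MKO was set against that in FLOX mice with the interaction term, which answers whether the genotype altered the response to CR. No member was called by limma, and none of the 14854 genes was, with 3 members and 720 genes (4.85%) at an unadjusted p under 0.05. Slc25a44 had the smallest p of the members, with an interaction of 0.19 ± 0.06 SE (unadjusted p = 0.00319, adjusted p = 0.967), from a difference of -0.06 in FLOX mice and 0.13 in mice labelled MKO. The calls in one genotype and not in the other are therefore not shown to differ between genotypes.

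Genes that work beside these carriers were read from lists of their pathways. Each count of a list stands beside the same share of all genes, 10.2% lower and 9.05% higher in mice labelled MKO on the control diet and 9.05% lower and 8.23% higher on CR. Of 14 genes of haem and iron-sulphur cluster synthesis, which use the iron brought by the mitoferrins, 10 were lower and none was higher in mice labelled MKO on the control diet, and 9 were lower on CR. The scaffold gene Iscu (1.36-fold, adjusted p = 2.39e-08) and the ferredoxin gene Fdx1 (1.47-fold, adjusted p = 7.43e-07) were lower on the control diet, and Alas1, which starts haem synthesis, was lower on CR (1.73-fold, adjusted p = 5.85e-07). The list had a median of -0.18 on each diet, beside -0.02 for all genes. Of 8 genes of coenzyme A synthesis, 3 were lower on the control diet, and 3 were lower and 1 higher on CR. The pantothenate kinase gene Pank1, first step of that pathway, was lower on both diets (1.6-fold, adjusted p = 4.93e-06, and 1.74-fold, adjusted p = 2.41e-07). Of 9 glutathione genes only Gstk1, a mitochondrial and peroxisomal transferase, was lower on the control diet (1.18-fold, adjusted p = 0.0058), and on CR Gstk1 was lower (1.4-fold, adjusted p = 1.79e-06) and Gsr, glutathione reductase, higher (1.24-fold, adjusted p = 0.0148).

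The other lists are read against those same shares. Of 10 genes of mitochondrial amino acid breakdown, 3 were lower and 1 higher on the control diet and 5 were lower on CR, with Dld, a subunit shared by several dehydrogenases, lower on both (1.23-fold, adjusted p = 1.85e-06, and 1.32-fold, adjusted p = 1.12e-08). Of 11 folate and one-carbon genes, 2 were lower and 1 higher on the control diet and 3 lower on CR, a count that includes Dld again. Nucleotide supply and mitochondrial DNA had 2 lower of 13 on the control diet and 3 on CR, led by Ak3, a matrix adenylate kinase (1.32-fold, adjusted p = 1.09e-05). Citrate export genes had 1 lower and 1 higher of 8 on the control diet and 1 higher on CR, where the higher one was Me1, malic enzyme (1.26-fold, adjusted p = 0.00293). Thiamine and NAD genes had 1 lower of 5 on the control diet, and 2 lower and 1 higher on CR. Among 15 other transporters of the inner membrane, 5 were lower and 1 higher on the control diet and 6 lower and 1 higher on CR, with Mpc1, of the pyruvate carrier, lower on both (1.15-fold, adjusted p = 0.000663, and 1.21-fold, adjusted p = 1.43e-05). Of 6 outer membrane channels and relatives, 2 were lower on the control diet and 3 on CR, led by Mtch1 (1.21-fold, adjusted p = 2.76e-05). Of the 6 carriers left out and the uncoupling proteins, 8 genes tested, 5 were lower on the control diet and 7 on CR.

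For CR against the control diet, the shares of all genes were 4.66% higher and 5.37% lower in FLOX mice and 6.64% higher and 8.48% lower in mice labelled MKO. Amino acid breakdown genes had 4 of 10 higher in FLOX mice and 3 of 10 in mice labelled MKO, with none lower, and list medians of 0.18 and 0.05. Haem and iron-sulphur genes had 2 of 14 higher in FLOX mice and 4 of 14 in mice labelled MKO, with none lower, and medians of 0.02 and 0.03. The median of all genes was 0.0012 in FLOX mice and 0.00095 in mice labelled MKO. Nucleotide supply and mitochondrial DNA had 1 higher and 1 lower of 13 in FLOX mice and 3 higher and 2 lower in mice labelled MKO. Folate and one-carbon genes had none of 11 in FLOX mice and 1 higher in mice labelled MKO, thiamine and NAD genes 1 higher of 5 and none, and outer membrane channels 1 higher of 6 in each, Mtch2. The carriers left out and uncoupling proteins had 1 of 8 higher in FLOX mice and 1 lower in mice labelled MKO. Glutathione genes had 2 higher and 1 lower of 9 in each genotype, with Gstk1 higher in both (1.42-fold, adjusted p = 1.52e-05, and 1.2-fold, adjusted p = 0.00325). Citrate export genes had 1 of 8 higher, Idh1, a cytosolic source of NADPH (1.34-fold, adjusted p = 0.000398, and 1.55-fold, adjusted p = 6.3e-07), and 1 lower, Me1, in each genotype. Coenzyme A synthesis had none of 8 in FLOX mice and 2 lower in mice labelled MKO. The other inner membrane transporters had none of 15 in either genotype.

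Markers of slow fibres had higher sums in mice labelled MKO, with overlap on both diets that was slight for CR. These sums add the intensities of Myh7, Tnni1, Tnnt1, Tnnc1, Myl3 and Myl2. Control-diet sums ran from 2562 to 9850 in FLOX (median 4932) and from 6544 to 11324 in MKO (median 9659). CR sums ran from 4011 to 7558 in FLOX (median 7023) and from 7554 to 20709 in MKO (median 9359). The median genotype difference (log2) of the 6 genes came to 0.60 for control-diet mice and 0.57 for CR mice. That of all genes was -0.02 for each diet. Of the 6, 1 was called higher for each diet, Myl3 in control-diet mice and Myl2 in CR mice. The 3 arrays called rich in slow fibre transcripts were picked by the mean log2 of Myh7, Tnni1, Tnnt1 and Tnnc1, without Myl3 and Myl2. They lay more than 1 above the median of all arrays, and came 1 from each group except CR FLOX mice. Among the other control-diet mice this mean was 8.19 to 8.75 in FLOX and 8.26 to 9.54 in MKO. Leaving the 3 arrays out therefore does not level slow fibre transcripts between the genotypes. Without the 3 arrays the genotype difference of Slc25a39 came to -0.65 for the control diet and -0.54 for CR. That of Slc25a34 came to -0.49 and -0.58, that of Slc25a26 to -0.27 and -0.43, and that of Slc25a16 to 0.33 and 0.29, all called. Under the same setting the genotype calls of Slc25a29 on the control diet (adjusted p = 0.0979) and of Slc25a33 on CR (adjusted p = 0.0919) ended. Markers of fibroblasts and tendon were lower on CR, 4 of 6 in each genotype, with summed intensities of 9867 to 12880 in control-diet FLOX mice and 6932 to 9294 in CR FLOX mice. In mice labelled MKO the sums were 10617 to 12947 and 7000 to 10742. Endothelial markers were lower on CR for 1 of 6 in FLOX mice and 4 of 6 in mice labelled MKO. Macrophage and leukocyte markers were lower for 2 of 5 and 1 of 5. For CR, the shares of all genes were 5.37% lower and 4.66% higher in FLOX mice, and 8.48% lower and 6.64% higher in mice labelled MKO. Adipocyte markers (4 tested) and Schwann cell markers (3 tested) had no call for diet or genotype. Erythroid markers (3 tested) had 1 call, Hba-a1, higher on CR in FLOX mice. In mice labelled MKO against FLOX, endothelial markers were lower for 1 of 6 on the control diet and 2 of 6 on CR. Fibroblast and tendon markers had 1 higher and 1 lower on the control diet and 1 higher on CR. Macrophage and leukocyte markers had 1 of 5 lower on the control diet and none on CR. Of all genes, 10.2% were lower and 9.05% higher on the control diet, and 9.05% lower and 8.23% higher on CR. The part of these cell types in the genotype differences, and in the changes of Slc25a36, Slc25a26 and the other members on CR, was not tested.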

How the data were processed

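The series holds 1-colour Affymetrix arrays of TA/EDL muscle RNA from 26 mice, grouped by diet and genotype from the array titles. The deposited table gives 1 intensity per probe set and array on a linear scale, as the authors processed it. How the authors corrected background, summarised probes and normalized arrays was not given in the sources used here. No detection calls were used, and the number of arrays limits the precision.

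Values were taken as log2(intensity + 16) with no further normalization. Probe sets naming several genes or none, and those below the 30th percentile of the means (7.47 on the log2 scale), were removed. Each gene was read from its brightest remaining probe set. Symbols were updated by gene identifier. limma 3.58.1 in R 4.3.3 (lmFit, eBayes) was fitted to all 26 arrays with 1 mean per group, was tested on simulated data, and gave 5 comparisons: CR against control diet in each genotype, MKO against FLOX on each diet, and their interaction. P-values were Benjamini-Hochberg adjusted over the 14854 genes, or over all probe sets where probe sets are counted, and called at 0.05. The p-values judge differences between group means against the spread between these mice. Motifs were searched in RefSeq promoters (GRCm38.p6).

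The members, lists and tests were chosen with earlier results of these data known. Every member may be named. Of each pathway list at most the 2 called genes of smallest p per comparison are named. The alternatives changed the pseudocount, the filter, the normalization, the probe set of a gene, the variance model, the array weights and the arrays in the fit, added the replicate number as a block, and left out each mouse in turn.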

Additional observations from a re-analysis of the deposited data

Results flagged for a closer look

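For each tested member and group, the mouse farthest from its group was compared with the range of that group. Of 140 combinations of member and group, 12 held 1 mouse far from the others, and chance alone gives about 1 in 20, or 7. The causes were not tested.

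Among carriers called for genotype or diet, Slc25a16 stood at 823 in control-diet MKO mouse 4, and at 726 to 763 in the others of that group. Slc25a26 stood at 427 in control-diet MKO mouse 6, below 488 to 503 in the others. Slc25a42 stood at 588 in CR MKO mouse 4, above 483 to 518. Slc25a36 stood at 1034 in CR MKO mouse 5, above 511 to 649. Slc25a47 stood at 454 in control-diet MKO mouse 6, above 356 to 392.

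Among carriers with no call, the citrate carrier gene Slc25a1 stood at 526 in control-diet FLOX mouse 3, above 334 to 368 in the others. Slc25a10 stood at 485 in CR FLOX mouse 2, above 427 to 438. The glutamate carrier gene Slc25a22 stood low in control-diet FLOX mouse 4, at 1132 against 1377 to 1518, and high in CR MKO mouse 1, at 1886 against 1247 to 1362. Slc25a27 stood at 269 in control-diet MKO mouse 2, below 313 to 333. Slc25a35 stood at 238 in control-diet FLOX mouse 5, below 283 to 298. The NAD carrier gene Slc25a51 stood at 2568 in control-diet MKO mouse 3, above 1418 to 1744.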

How the results depend on the processing

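None of the 23 called results of single members changed direction under the 12 other settings or the 26 fits that left out 1 mouse, where Slc25a13 gave no value with the filter at the 50th percentile. Counts of members and probe sets for genotype stayed within 1.5 times on both diets in all settings. Leaving out each mouse gave 6 to 8 lower members on the control diet and 6 to 9 on CR. For CR in FLOX mice, members lower rose from 0 to 1 (Slc25a39) with median centring, the mean of a gene's probe sets, array weights and without the arrays rich in slow fibre transcripts, and members higher from 0 to 1 with array weights. Both counts ranged from 0 to 1 with each mouse left out. Probe sets called, 2 in the reported setting, numbered 6 with array weights, 4 without the slow-rich arrays, and 1 to 5 with each mouse left out, passing 1.5 times without number 1, 3 or 4 of the FLOX controls or number 4 of the restricted FLOX group. For CR in mice labelled MKO, members higher, 4 in the reported setting, numbered 1 with median centring, 0 without the slow-rich arrays, 1 with only the compared groups, and 2 to 5 with each mouse left out. Probe sets called, 12 in the reported setting, numbered 7 with median centring, 7 without the slow-rich arrays, 5 with only the compared groups, and 7 to 13 with each mouse left out (7 without control-diet MKO mouse 1). The causes were not tested.

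Mice with the same replicate number in different groups correlated at -0.36 to 0.34 over 37 pairs (median 0.08, 16 pairs over 0.1). The 216 pairs of different number ranged from -0.425 to 0.496 (median -0.01, 63 pairs over 0.1). As these ranges overlap, whether the number pairs the mice cannot be decided from them. With the replicate block, members lower were 7 on the control diet and 8 on CR, and members higher on CR in mice labelled MKO were 4. The genes were not all the same: the block ended the calls of Slc25a29 on the control diet (0.0818) and of Slc25a47 on CR in mice labelled MKO (0.0588), and added Slc25a28 (0.0376) to the latter and Slc25a27 (0.0455) to the lower members on CR. Values near the floor of about 60 limit what dim members can show.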
